A study of Rattus norvegicus with 40 samples.

Results

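The astrocyte markers examined here were 10 genes commonly used as markers of that cell type: Gfap, Aqp4, Slc1a2, Slc1a3, Aldh1l1, S100b, Gja1, Gjb6, Glul and Aldoc. Each gene was represented by the probe set whose only gene symbol in the platform's probe table was that gene. This gave 1 probe set each for 9 of the 10 genes, out of 14506 genes with a probe set of their own, and no choice between probe sets had to be made. Glul, which encodes glutamine synthetase, had no probe set under that symbol and was not analysed here. The rule used no measured values.

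Astrocytes are the glial cells that surround synapses and blood vessels. They clear glutamate and potassium from the extracellular space, pass metabolites to neurons and are joined to each other by gap junctions into a network. After many kinds of injury they become reactive, a state in which the intermediate filament gene Gfap and other genes are raised, and developmental lead exposure has long been studied for effects on hippocampal neurons and glia.

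RNA came from the hippocampus of rats (strain not given in the sources used here) killed at postnatal day 55. There were 40 arrays in 10 groups of 4, formed by sex, dose of lead acetate in the chow (250 or 750 ppm) and the window of exposure. In the perinatal groups the mothers ate lead chow from 10 days before mating up to weaning, and the pups then ate plain chow. In the postnatal groups lead chow ran from birth to day 45 and plain chow followed, so that every exposed rat had a lead-free interval before it was killed. Each sex had 1 control group on plain chow, and that group served as the control of both windows and both doses, so the comparisons with controls share their control arrays. The labels do not say which rats were littermates. The limma p-values rest on the spread between samples within groups of 4, pooled over all 10 groups and moderated across probe sets. That spread may be technical. The tissue was whole hippocampus, so that fewer astrocytes and less RNA per astrocyte cannot be told apart. All values are log2 signals: a difference of 1 is a doubling of signal, and signals of different probe sets are not compared with each other.

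Some arrays stood apart. Eif2s3, an X-linked gene with higher signal in females, went against the sex label on 3 of the 8 control arrays: the one labelled male control replicate 4 and those labelled female control replicates 1 and 3. The 3 arrays of lowest slope against the mean array, with high signals compressed and low signals raised, were treated as flattened. These were male 250 ppm perinatal replicates 1 and 3 and male 750 ppm perinatal replicate 1. Their slopes minus 1 were -0.0191, -0.0314 and -0.0325, and the next lowest was -0.0132 (male control replicate 2). Their number was thus set by rank. The sample numbers in the titles fell in 3 ranges; the lowest range held the 8 controls and the female 750 ppm perinatal group. For the other 7 exposed groups the exposure and the number range cannot be told apart, and the labels do not say what the numbers stand for. The 9 markers had signals between 7.91 (Aldh1l1) and 12.81 (Slc1a2) on the arrays of all groups, where the array medians lay between 6.96 and 7.06, so each marker lay above the median probe set on every array.

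The promoter of Gjb6 is shown because Gjb6, which encodes the gap junction protein connexin 30, was the 1 marker called in any comparison, and because its signal moved with that of glucocorticoid-induced genes, as described further on. RefSeq (rat assembly GRCr8) gives 2 start sites of Gjb6 on the minus strand of chromosome 15. The window chr15:35408913-35409212, from 250 bases before to 50 bases after the downstream start, is printed along the gene's strand. Capitals mark matches to AGAACA, a short motif of the glucocorticoid receptor found here as its reverse complement, and to TTGGCA, a short motif of nuclear factor I, also found reversed.

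Gjb6: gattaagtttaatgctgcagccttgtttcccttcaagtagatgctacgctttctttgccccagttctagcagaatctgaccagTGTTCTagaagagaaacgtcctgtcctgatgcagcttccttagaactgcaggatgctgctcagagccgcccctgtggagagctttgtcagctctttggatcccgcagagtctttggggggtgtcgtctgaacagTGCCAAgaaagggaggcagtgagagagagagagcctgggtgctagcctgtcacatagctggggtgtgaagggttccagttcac

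Both strands were searched for AGAACA, for TTGGCA and for TTCCNGGAA, a STAT motif. The window held 1 match to AGAACA and 1 to TTGGCA. The window of the upstream Gjb6 start, chr15:35410089-35410388, held no match to any of the 3. Over 33469 windows of the same length, 20.7% held AGAACA, 14% held TTGGCA and 1.27% held TTCCNGGAA, so these matches are common. All 9 markers had a promoter window in RefSeq, 14 windows in all. AGAACA was found in 1 window of Gjb6 and 1 of Slc1a2, and in none of the other markers. TTGGCA was found in 1 window of Gjb6, in every window of Slc1a3 and in that of S100b, and in none of the other markers. A match is a description of letters in this window and says nothing on binding.

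Across the 8 comparisons of an exposed group with the controls of its sex, 1 of the 9 markers was called in 1 comparison (limma, Benjamini-Hochberg adjusted p under 0.05 over all 29214 probe sets): Gjb6 was higher in females exposed perinatally to 750 ppm. Of all probe sets, 0.157% were called in that comparison. In the other female comparisons 0.0171% (250 ppm perinatal), 0.0171% (250 ppm postnatal) and 0.0137% (750 ppm postnatal) were called, and none was a marker. In males 0.089% and 0.0582% were called at 250 and 750 ppm perinatal and 0.0342% and 0.0445% at 250 and 750 ppm postnatal, again with no marker. The other 8 markers, among them Gfap, were called in no comparison. The spread between arrays was small for most markers: 7 of the 9 had a pooled SD within groups below 0.114, the median of all genes. The exceptions were Gfap (0.120) and Gjb6 (0.137). The plot of signals by array and group shows all values.

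**Figure D1:**
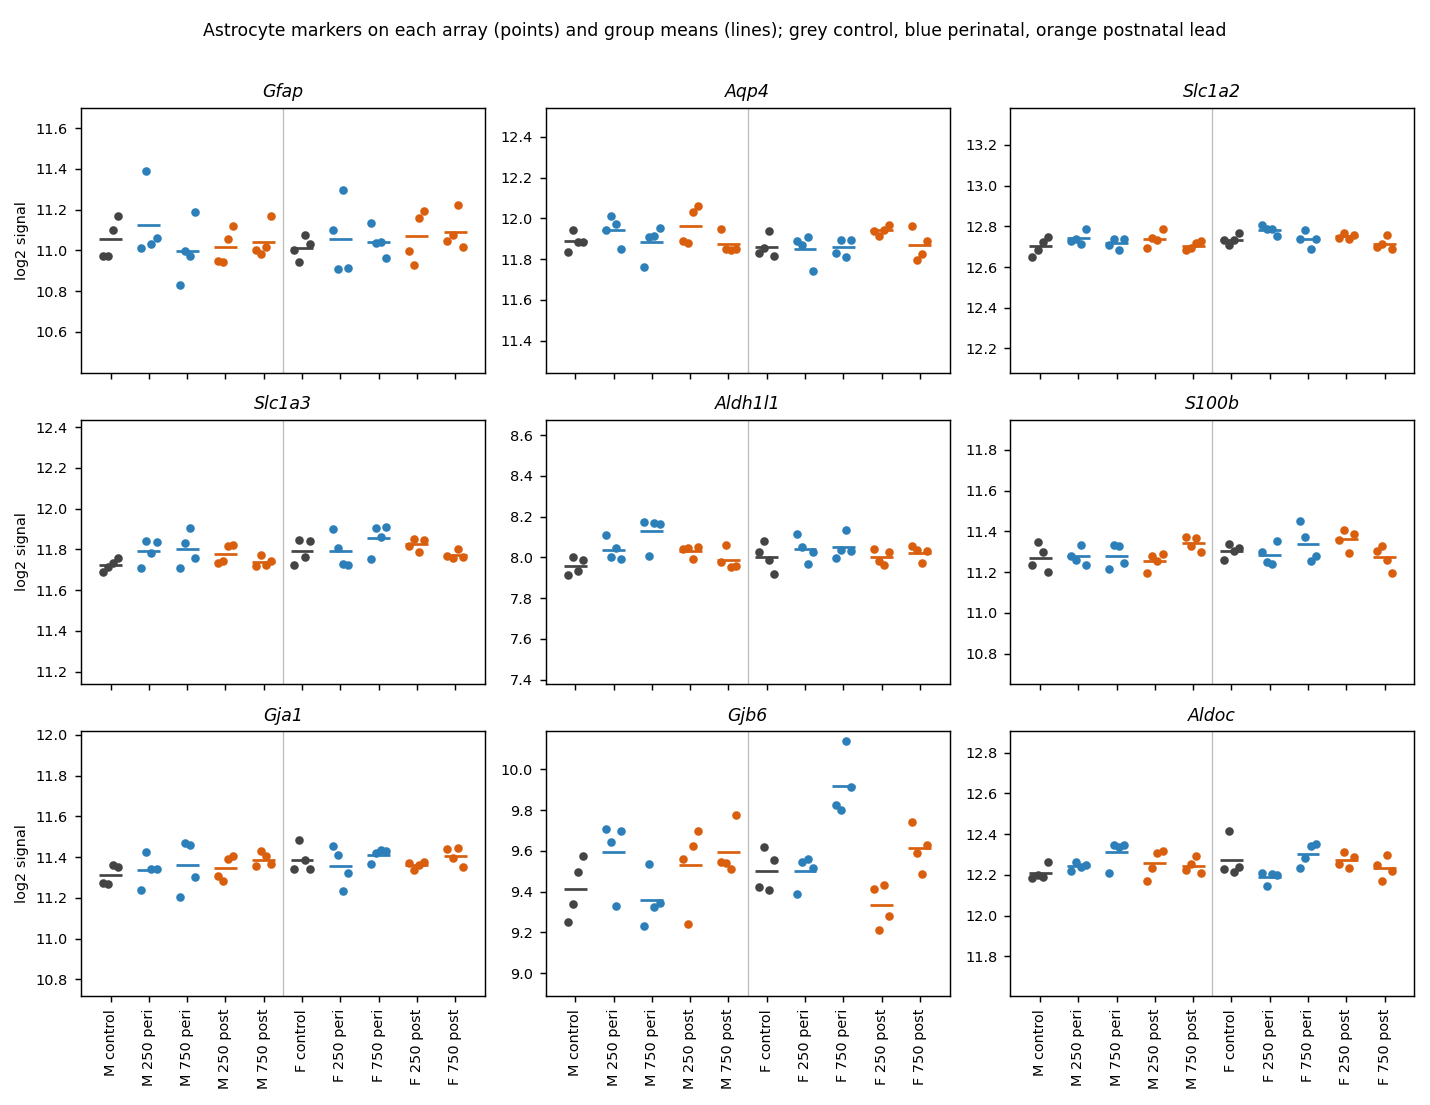
Log2 signal (y axis) of each of the 9 markers on each of the 40 arrays, by group (x axis); each point is 1 array and the bar is the group mean of 4 arrays, and all panels span the same width in log2 at different levels. The 4 arrays of females exposed perinatally to 750 ppm lie above all 36 other arrays for Gjb6, while the groups of the other markers lie within a narrow range.

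Gfap encodes the intermediate filament protein of astrocytes and is the usual marker of reactive change. Its group means lay between 10.997 ± 0.146 (SD, n = 4) in males exposed perinatally to 750 ppm and 11.123 ± 0.179 (SD, n = 4) in males exposed perinatally to 250 ppm. The control means were 11.054 ± 0.098 in males and 11.013 ± 0.055 in females (SD, n = 4 each). The highest single value, 11.390, was replicate 2 of the males exposed perinatally to 250 ppm, whose other 3 arrays lay at 11.01, 11.03 and 11.06. The ranges of all groups overlapped, and the limma F test over the 10 groups gave an adjusted p of 0.958.

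Aqp4 encodes aquaporin 4, the water channel of astrocyte end-feet at vessels. Its group means spanned 0.113, against a pooled SD of 0.065. The F test gave an adjusted p of 0.526 (limma).

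Slc1a2 and Slc1a3 encode the glutamate transporters GLT-1 and GLAST. Slc1a2 had the smallest spread of the markers, with a pooled SD of 0.030 and group means that spanned 0.082. Females exposed perinatally to 250 ppm had the highest Slc1a2 mean, 12.783 ± 0.023 (SD, n = 4), with arrays at 12.81, 12.79, 12.79 and 12.75. Female controls stood at 12.73, 12.71, 12.73 and 12.77, so that the ranges overlapped. Slc1a3 group means spanned 0.134 against a pooled SD of 0.057. Neither transporter was called by the F test (limma adjusted p 0.438 for Slc1a2 and 0.487 for Slc1a3).

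Aldh1l1 encodes a folate enzyme used as a marker of astrocyte cell bodies, and Aldoc encodes a brain form of the glycolytic enzyme aldolase. Both had their highest group means in males exposed perinatally to 750 ppm. The 4 Aldh1l1 values there were 8.18, 8.01, 8.17 and 8.16, against 7.912, 8.003, 7.93 and 7.99 in male controls. The groups did not overlap (2.27% of probe sets were higher without overlap there), although replicate 2 of the exposed group lay close to the controls. The difference was 0.170 (SE 0.046, 1.13-fold), with a limma p of 0.00081 and an adjusted p of 0.242, and was not called. Aldoc stood at 12.21, 12.35, 12.34 and 12.35 in the same exposed group and at 12.19, 12.20, 12.19 and 12.26 in male controls. The Aldoc difference was 0.101 (SE 0.039, limma adjusted p = 0.493), with replicate 1, one of the flattened arrays, inside the control range. Without the 3 flattened arrays the differences were 0.155 for Aldh1l1 (adjusted p = 0.457, limma) and 0.134 for Aldoc (adjusted p = 0.418, limma). In females exposed perinatally to 250 ppm, Aldoc stood at 12.21, 12.14, 12.21 and 12.20, below all 4 female controls at 12.23, 12.42, 12.22 and 12.24; 1.23% of probe sets were lower without overlap there. That difference was -0.08 (SE 0.039, limma adjusted p = 0.853).

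S100b encodes a calcium-binding protein of astrocytes that oligodendrocyte-lineage cells also express. Its group means spanned 0.108 against a pooled SD of 0.055, and the F test gave an adjusted p of 0.521 (limma).

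Gja1 encodes connexin 43, the other main gap junction protein of astrocytes. Its group means spanned 0.100 against a pooled SD of 0.068. In females exposed perinatally to 750 ppm Gja1 stood at 11.36, 11.42, 11.44 and 11.43, and in female controls at 11.34, 11.48, 11.39 and 11.34. The difference was 0.025 (SE 0.048), with a 95% confidence interval from -0.07 to 0.12 and overlapping groups.

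Gjb6 was high in 1 group. In females exposed perinatally to 750 ppm the 4 arrays stood at 9.83, 9.80, 10.14 and 9.91, and in female controls at 9.42, 9.62, 9.41 and 9.56. The lowest of the 4 exposed arrays, 9.800, lay above the highest of the 36 other arrays of the series, 9.777, which was replicate 4 of the males exposed postnatally to 750 ppm. Group means were 9.920 ± 0.155 and 9.501 ± 0.103 (SD, n = 4 each). The difference was 0.419 (SE 0.093, 95% confidence interval 0.230 to 0.608, 1.34-fold), with a limma p of 7e-05 and an adjusted p of 0.0475. The groups did not overlap, and 2.58% of all probe sets were higher without overlap there. The F test over the 10 groups also called Gjb6 (limma adjusted p = 0.0108), with 0.654% of probe sets called.

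The call of Gjb6 was near the threshold and was lost in 6 of the 8 fits that left out 1 array of either group. Those arrays were female controls 1, 3 and 4 (limma adjusted p = 0.210, 0.231 and 0.0848) and exposed replicates 2, 3 and 4 (0.0570, 0.308 and 0.130). The call was also lost with a fit of the compared groups only (limma adjusted p = 0.209), after a further quantile normalization (0.0611) and with no variance trend (0.0661). The female controls of replicates 1 and 3, whose Eif2s3 went against the label, were the lower pair for Gjb6. Without the 3 such arrays the difference was 0.333 and the adjusted p was 0.767 (limma). The mismatched male control, replicate 4, stood at 9.574, the highest of its group. By Eif2s3 the female-like controls were this array and female replicates 2 and 4 (9.617 and 9.557). All other controls lay lower (9.252 to 9.496). Against the mean of both control groups, which does not depend on the sex labels, the difference was 0.462 with an adjusted p of 0.00186 (limma). That mean takes in both sexes, so a sex difference and the exposure difference cannot be told apart in this value. The highest of the 8 controls stood at 9.617. Leaving out replicate 3 of the exposed group, the highest array, gave a difference of 0.345, and the F test then no longer called Gjb6.

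The other groups lay lower. In males exposed perinatally to 750 ppm Gjb6 stood at 9.23, 9.53, 9.33 and 9.35, overlapping male controls at 9.25, 9.34, 9.50 and 9.57. The lowest group mean, 9.335, was that of females exposed postnatally to 250 ppm, with arrays at 9.41, 9.21, 9.43 and 9.28. In the order of the 10 group means the step from the highest (9.920) to the next (9.613, females exposed postnatally to 750 ppm) was 0.307 and exceeded the pooled SD of 0.137. No other step between neighbouring groups exceeded it.

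The remaining comparisons tested how Gjb6 differed by dose, window and sex, and none was called. Between doses in perinatally exposed females, 750 minus 250 ppm, the difference was 0.416 (SE 0.093, limma adjusted p = 0.0794), and the groups did not overlap, as 2.84% of probe sets were higher without overlap. With array weights it was 0.391 with an adjusted p of 0.0368 (limma). In postnatally exposed females the dose difference was 0.278 (limma adjusted p = 0.9995), again with no overlap (1.13% of probe sets). Between windows in females at 750 ppm, postnatal minus perinatal, it was -0.31 (limma adjusted p = 0.468), without overlap (2.05% of probe sets). In males at 750 ppm it had the opposite sign, 0.233 (limma adjusted p = 0.186), with overlapping groups, and at 250 ppm it was -0.06 in males and -0.17 in females. The female exposure difference exceeded the male one at 750 ppm perinatal by 0.474 (SE 0.131, limma adjusted p = 0.386), so that a difference between the sexes was not shown. Without the 3 controls of mismatched sex it was 0.335 (limma adjusted p = 0.885). In males the dose difference ran the other way in the perinatal groups, -0.23 (limma adjusted p = 0.839), with overlapping groups. The females exposed perinatally to 750 ppm were in the lowest number range, and all other exposed females were in another. The males exposed perinatally to 750 ppm had a range of their own. In the dose, window and sex comparisons that use either group, the exposure and the number range cannot be told apart.

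Of the other markers none was called by dose, window or sex (limma). By dose, 750 minus 250 ppm, S100b differed by 0.088 in postnatally exposed males and by -0.09 in postnatally exposed females, and Aldoc by 0.112 in perinatally exposed females. Each of these had an unadjusted limma p under 0.05, as had 3.82%, 3.66% and 8.02% of all probe sets in the same order. The shares of all probe sets called by dose were 0.0411% and 0.0103% in perinatal and postnatal males and 0.0856% and 0 in perinatal and postnatal females. By window, postnatal minus perinatal, Aldh1l1 differed by -0.14 in males at 750 ppm (limma adjusted p = 0.140). Aldoc differed by 0.082 in females at 250 ppm and Slc1a3 by -0.08 in females at 750 ppm. Of all probe sets, 19.4%, 5.98% and 5.07% had an unadjusted limma p under 0.05 in these window comparisons, in the same order. The shares called by window were 0.00342% and 0.175% in males at 250 and 750 ppm and 0.0103% and 0.0548% in females. The number range also differed between the groups compared for Aldoc by dose and for Aldh1l1 and Slc1a3 by window. Between female and male controls no marker had an unadjusted p under 0.05, against 4.63% of probe sets, and Gjb6 differed by 0.085. These 8 arrays include the 3 of mismatched sex, so both control groups are mixed by that measure, and the tests of an exposure between the sexes use the same controls. Without the 3 arrays 4 probe sets in place of 0 were called between the controls, and no marker was. Over the 4 exposed pairs of groups 0.0924% of probe sets were called between the sexes, none a marker. For the test that an exposure differs between the sexes, 0.0205% were called at 750 ppm perinatal and 0 at the others.

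To set both connexins side by side within each array, the log2 signal of Gja1 was subtracted from that of Gjb6. This value rose by 0.394 between female controls and females exposed perinatally to 750 ppm (exact two-sided permutation p = 0.0286, n = 4 and 4, the smallest p this design can give). The comparison was chosen after the Gjb6 values were seen and adds no independent support.

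**Figure D2:**
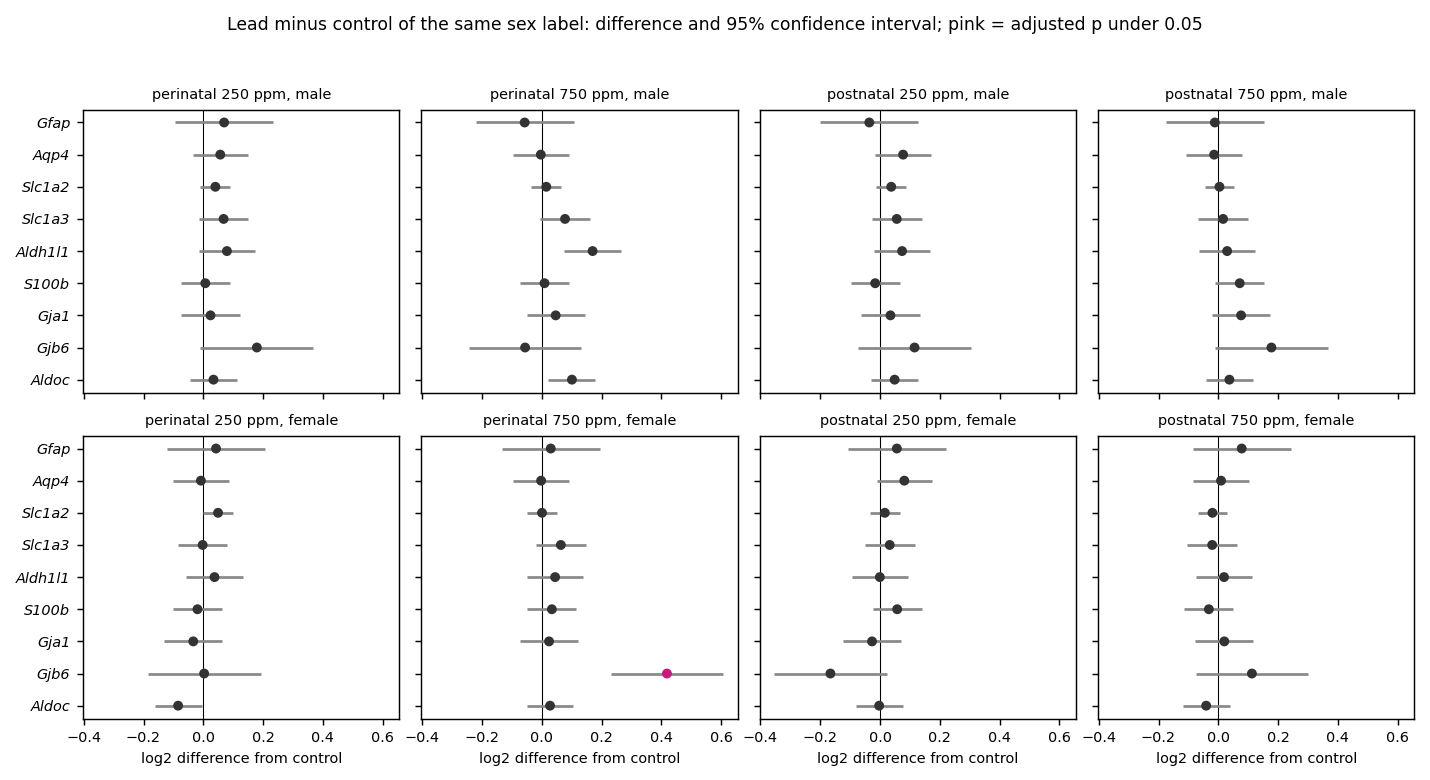
Difference in log2 signal from the controls of the same sex (x axis) for the 9 markers (y axis) in each of the 8 exposures; points are limma estimates and bars their 95% confidence intervals. Gjb6 in females exposed perinatally to 750 ppm, at 0.419, stands clear of 0 and of the other markers.

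The intervals of the other 8 markers, each taken on its own, give the range of differences in signal that the values allow. They do not give the smallest difference that would be called, as Aldh1l1 at 0.170 was not called. They are not adjusted for their number, and they use the control groups with the 3 arrays of mismatched sex. Over their 64 differences from control the estimates ran from -0.08 (Aldoc, females exposed perinatally to 250 ppm) to 0.170 (Aldh1l1, males exposed perinatally to 750 ppm), with a median size of 0.034. No 95% confidence interval reached below -0.22 (Gfap, 0.858-fold) or above 0.264 (Aldh1l1, 1.20-fold). An unadjusted limma p under 0.05 was reached by 3 of the 64, those of Aldh1l1 and Aldoc given above. In males 7.11% and 7.77% of all probe sets reached it at 250 and 750 ppm perinatal, and 6.03% and 9.51% at 250 and 750 ppm postnatal. In females the shares were 5.6%, 5.81%, 3.64% and 3.58% in the same order.

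The direction of the markers was counted beside that of all genes. In males exposed perinatally to 250 ppm all 9 markers were higher than in male controls, with a median difference of 0.057, while 51.5% of all genes were higher; 0 of the 9 passed the test (limma), 0 at an unadjusted p under 0.05. In the 4 settings of array weights, both control groups, no flattened arrays and no controls of mismatched sex, 7 or 8 of the 9 were higher. In the mean of the 8 exposed groups minus that of the 2 control groups, again 9 of 9 were higher (median 0.022, against 0.003 for all genes). None was called (limma), 1 (Aldh1l1, 0.057) had an unadjusted p under 0.05, as had 7.66% of probe sets, 0.38% of probe sets were called, and 7 of 9 were higher without the 3 control arrays of mismatched sex. In females exposed perinatally to 750 ppm 8 of 9 were higher, with a median of 0.030, while 55.9% of all genes were higher; across the settings tried the count ran from 7 to 9. The other exposures were mixed. In females 4 of 9 were higher at 250 ppm perinatal and 5 of 9 in each postnatal group, and in males 6 of 9 were higher at 750 ppm perinatal and 7 of 9 in each postnatal group.

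Markers were next compared with each other over the 40 arrays after removal of group means. Of 36 pairs 30 had a positive Pearson's r, with a median of 0.170. The pairs that passed a permutation test (100000 resamples within groups, adjusted over 36 pairs) joined 3 markers: Slc1a3, Gja1 and Aldoc. Slc1a3 and Gja1 had r = 0.787 and Spearman's rho = 0.758 (adjusted permutation p = 0.00072 and 0.0011), and r = 0.743 without the 2 arrays farthest from the median of Slc1a3. Slc1a3 and Aldoc had r = 0.562 and rho = 0.595 (adjusted permutation p = 0.0099 and 0.005). Gja1 and Aldoc had r = 0.562 and rho = 0.577 (adjusted permutation p = 0.013 and 0.0094). Without the 3 flattened arrays r was 0.741 for Slc1a3 and Gja1. The most negative pair, Slc1a2 and Aldh1l1, had r = -0.328 (adjusted permutation p = 0.34). Gfap passed with no other marker. All values come from the same arrays, and array quality and tissue content are common to the pairs.

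**Figure D3:**
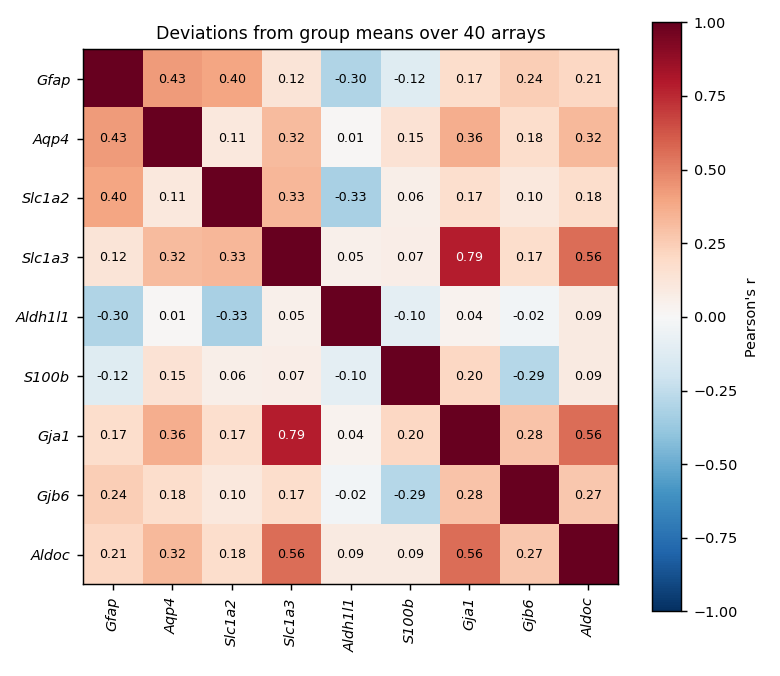
Pearson's r over 40 arrays between deviations from group means of the 9 markers, written in each cell and shown in colour from negative to positive. The cells joining Slc1a3, Gja1 and Aldoc, at 0.562 to 0.787, are the highest outside the diagonal.

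For a mean profile of the 9 markers, the deviations of each were divided by their SD and then averaged. Genes most like that profile, out of 14497 other genes, were Epdr1 (r = 0.784), Rhob (0.773), Gad2 (0.764), Tfg (0.753) and Ppp1r2 (0.746), given as a description. Gad2 encodes a GABA-synthesising enzyme of inhibitory neurons and Rhob a small GTPase. Genes most like Gjb6 alone were chosen after its values were seen: Itga1 (r = 0.767), Net1 (0.751), Fn1 (0.741), Sult1a1 (0.696) and Lyve1 (0.695). Fn1 encodes fibronectin, and Lyve1 and Cd163 (r = 0.683) are known from macrophages at the brain's borders and vessels.

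Gjb6 moved with a list of glucocorticoid-induced genes. In females exposed perinatally to 750 ppm all 10 genes of that list were higher than in female controls, with a median difference of 0.394; all 10 had an unadjusted limma p under 0.05, where 5.81% of probe sets did. The 2 called genes were Sult1a1, a sulfotransferase (0.828, SE 0.160, adjusted p = 0.0117, limma), and Tsc22d3, which encodes the glucocorticoid-induced leucine zipper (0.569, SE 0.108, adjusted p = 0.00946, limma). The mean of the list stood between 9.29 and 9.68 on the 4 exposed arrays and between 8.95 and 9.16 on the 4 controls. These controls include female replicates 1 and 3, of mismatched sex, and the list was not tested without them. Its group mean was 9.071 in female controls and 8.960 in male controls. In females exposed postnatally to 250 ppm, where Gjb6 was lowest, 0 of the 10 were higher, with a median of -0.12, and none was called (limma, 1 at an unadjusted p under 0.05). The list was written with earlier results of these arrays known and is no independent evidence of its direction.

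**Figure D4:**
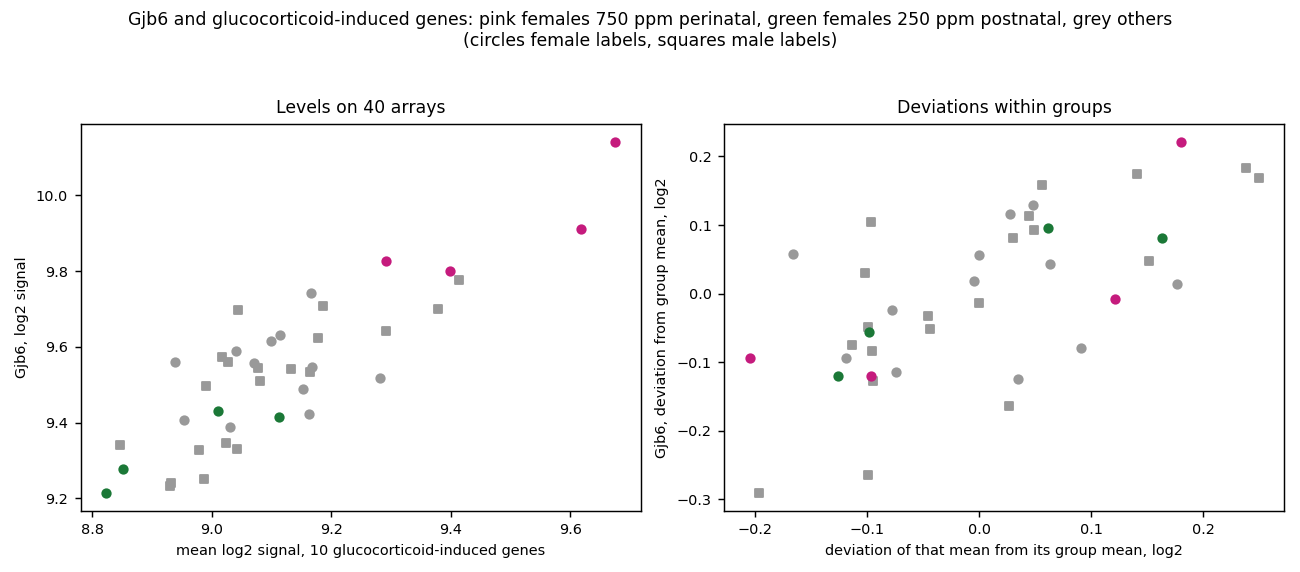
Log2 signal of Gjb6 against the mean log2 signal of 10 glucocorticoid-induced genes on the 40 arrays, as measured (left) and as deviations from group means (right), with circles for female and squares for male labels. Females exposed perinatally to 750 ppm (pink) lie at the top right of the left panel and females exposed postnatally to 250 ppm (green) at the lower left. Within groups r was 0.663 over 40 arrays.

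Within groups, over 40 arrays, Gjb6 and the mean of this list had r = 0.663 and rho = 0.631 (adjusted permutation p = 0.00055 and 0.0007, over 15 lists), and r = 0.628 without the 2 farthest arrays. Similar values were found for the reactive astrocyte list (r = 0.630, rho = 0.664, adjusted permutation p = 0.00055 and 0.0007) and for endothelial and mural cell markers (r = 0.650, rho = 0.640, adjusted permutation p = 0.00055 and 0.0007). Meningeal fibroblast markers gave r = 0.437 and rho = 0.463 (adjusted permutation p = 0.044 and 0.031). Microglial markers passed by rank only (r = 0.392, rho = 0.448, adjusted permutation p = 0.1 and 0.037), and choroid plexus markers gave r = 0.024. Of the single glucocorticoid-induced genes, Sult1a1 had rank 4 of 14497 genes for likeness to Gjb6, and Errfi1 (r = 0.640), Pdk4 (0.585), Nfkbia (0.552), Tsc22d3 (0.491), Sgk1 (0.471) and Fkbp5 (0.418) were lower. The ranks of the latter were 21, 45, 97, 223, 310 and 581 in the same order, so many genes outside the list were as like Gjb6. Sult1a1 and these genes, 7 in all, passed a permutation test adjusted over the 10 genes. The lists were written with earlier results of these arrays known, and the single genes were chosen after their values were seen. The passes are thus a description and add no independent support. The share of all genes that would pass the same test was not counted. The other 3 did not: Ddit4 (r = 0.334, adjusted permutation p = 0.086), Per1 (r = 0.295, 0.086) and Zbtb16 (r = 0.219, 0.19).

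Markers of other cell types were set beside the Gjb6 difference in females exposed perinatally to 750 ppm. Of 12 endothelial and mural genes 8 were higher, and their mean signal ran from 8.49 to 8.64 on exposed arrays and from 8.32 to 8.54 on controls. Of 9 meningeal fibroblast genes 7 were higher (8.01 to 8.71 against 7.50 to 8.63), and of 11 microglial genes 8 (8.53 to 8.63 against 8.46 to 8.58). Of 11 oligodendrocyte and myelin genes 10 were higher (10.85 to 11.26 against 10.88 to 10.98). Each of these lists had its highest group mean in another group. For endothelial and mural genes (8.592 against 8.550) and meningeal genes (8.491 against 8.339) this was the females exposed postnatally to 750 ppm. For microglial genes it was the males exposed postnatally to 750 ppm (8.638 against 8.588). For myelin genes it was the females exposed perinatally to 250 ppm (11.193 against 11.063). All 5 oligodendrocyte precursor genes were higher, and the mean of that list did not overlap between the groups (9.25 to 9.41 against 9.07 to 9.20). This was not particular to that exposure, as the list mean lay above all controls of the same sex in every other exposed group. The lowest arrays of the other female groups stood at 9.1976 to 9.2119, against a highest control of 9.1971. In males they stood at 9.2066 to 9.2712, against 9.1885. In females exposed perinatally to 750 ppm the 7 choroid plexus and ependymal genes were all lower, with a median difference of -0.84. They varied widely on exposed and control arrays (6.96 to 10.29 against 6.50 to 10.24). Liver plasma protein genes included 2 that were called, Alb (1.04) and Apoc3 (0.798), and 5 of the 8 were higher. Apart from those 2 liver genes none of the genes in these lists was called there (limma), and their part in the Gjb6 result was not tested.

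In the same comparison none of the measured genes of 4 further astrocyte lists was called (limma). Over all features 55.9% of genes were higher there and 5.81% of probe sets had an unadjusted limma p under 0.05. Of 12 transporter and channel genes 6 were higher (median -0.0026, 2 at an unadjusted limma p under 0.05). Slc25a18, a mitochondrial glutamate carrier, had all 4 exposed values below the 4 controls (-0.22, limma adjusted p = 0.164; 1.42% of probe sets were lower without overlap), and the bicarbonate transporter Slc4a4 differed by 0.075, the potassium channel gene Kcnj16 by -0.24 and the glycine transporter Slc6a9 by 0.096. Of 15 metabolism and lipid genes 13 were higher (median 0.071, 5 at an unadjusted limma p under 0.05), led by Cbs of sulfur amino acid metabolism (0.178), the thyroid hormone activating enzyme Dio2 (0.390), Ndrg2 (0.065) and the glycine cleavage enzyme Gldc (0.140). Of 14 genes for receptors, surface and secreted proteins and transcription factors 10 were higher (median 0.024, 2 at an unadjusted limma p under 0.05), among them the growth factor receptor Fgfr3 (0.159) and the protease Htra1 (0.155), while the lipid receptor S1pr1 differed by -0.08. Of 19 reactive astrocyte genes 11 were higher (median 0.086, 5 at an unadjusted limma p under 0.05). The hyaluronan receptor Cd44 differed by 0.293 (limma adjusted p = 0.0848), Emp1 by 0.508 (limma adjusted p = 0.23), the protease inhibitor Timp1 by 0.383 and ceruloplasmin (Cp) by 0.521. These genes were named for their small p, and other genes of the list were lower. The mean of the reactive list was 7.216 here and 7.103 in female controls. It was 7.218 in females exposed postnatally to 750 ppm and 7.208 in male controls.

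**Figure D5:**
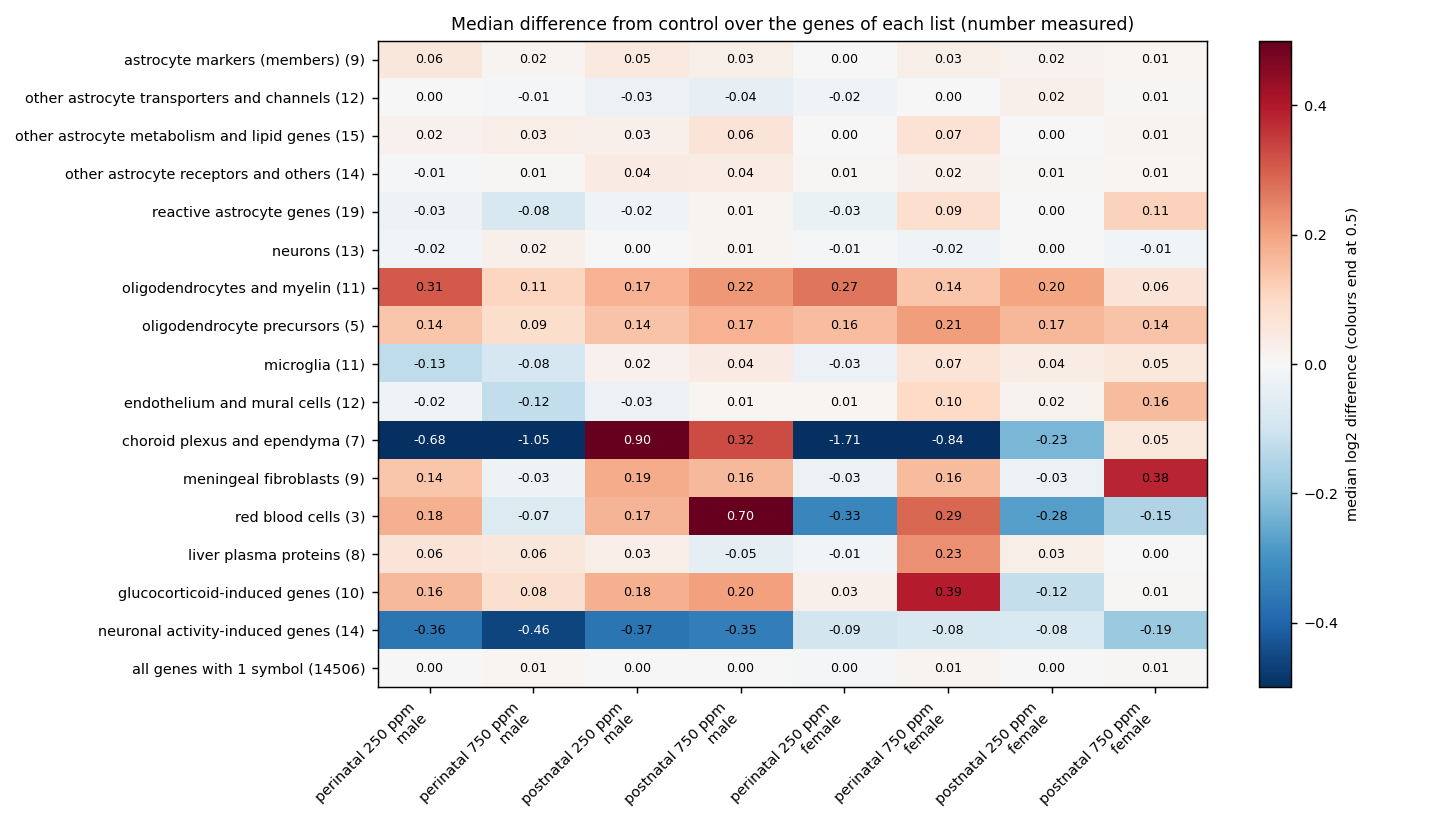
Median difference in log2 signal from controls of the same sex (number and colour in each cell) for gene lists (rows) in the 8 exposures (columns), with colours that end at 0.5. The astrocyte markers have medians close to 0 in every exposure, and the glucocorticoid-induced list has its highest median, 0.394, in females exposed perinatally to 750 ppm.

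Outside that comparison, genes of the lists were called in few exposures: Cldn11, a tight junction gene of myelin, was higher by 0.334 in males exposed perinatally to 250 ppm. Over all exposed groups minus controls the astrocyte potassium channel gene Kcnj16 was called (-0.33, limma adjusted p = 0.047), and the number range of the samples moved with exposure in that contrast.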

How the data were processed

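RNA (100 ng a sample) was labelled and hybridised to Affymetrix rat arrays, 1 array a sample. Per the submitters' processing notes the authors used RMA, a method that summarises probes into background-corrected, normalized log2 signals, and Partek, with no versions given. The values (2.07 to 13.93) were used as deposited, and 0 columns belonged to no sample. Of 29214 probe sets, 15310 had 1 gene symbol, 323 several and 13581 none.

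A limma 3.58.1 model (R 4.3.3) with a mean for each of 10 groups was fitted to all probe sets and 40 arrays with eBayes and a variance trend. It gave 23 contrasts and an F test, with Benjamini-Hochberg adjustment over all probe sets within each and calls at an adjusted p under 0.05. The fit was tested on simulated data. Correlations used deviations from group means with permutation within groups. The number of arrays limits the precision.

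The members, 16 gene lists (172 of 189 genes measured) and tests were chosen with earlier results of these data known. Named genes were all members found, list genes called in an exposure, up to 4 others of smallest p per astrocyte list where a member was called, and the 5 genes most like the members' mean. The genes most like Gjb6, the single glucocorticoid-induced genes, Kcnj16 over all exposed groups and the comparison of the connexins were chosen after their values were seen. Alternatives were other normalization, filtering, weighting, variance, control and array choices.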

Additional observations from a re-analysis of the deposited data

Results flagged for a closer look

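In 7 of 90 groups of 4 arrays, 1 array lay far from the other 3 by Dixon's 95% criterion, which chance alone flags in about 5% of groups. For Gfap this was replicate 2 of the males exposed perinatally to 250 ppm (11.390), above its group. For Aqp4 it was replicate 1 of the males exposed postnatally to 750 ppm (11.949), above its group. For Aldh1l1 it was replicate 2 of the males exposed perinatally to 750 ppm (8.007), below the other 3 arrays and next to the controls. For Gjb6 it was replicate 4 of the males exposed postnatally to 750 ppm (9.777), the highest array outside the females exposed perinatally to 750 ppm. Aldoc had 3 such arrays: replicate 1 of the males exposed perinatally to 750 ppm (12.211, a flattened array), replicate 2 of the female controls (12.417) and replicate 2 of the females exposed perinatally to 250 ppm (12.145).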

How the results depend on the processing

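The number of markers called changed in 4 of the 24 comparisons. In females exposed perinatally to 750 ppm the 1 call, Gjb6, became 0 with a fit of the compared groups only (0.419, adjusted p = 0.209), a further quantile normalization (0.4005, adjusted p = 0.0611), no variance trend (0.419, adjusted p = 0.0661) and without the 3 control arrays whose sex label was in doubt (0.333, adjusted p = 0.767). It stayed 1 without the dimmest 40% of probe sets, with array weights and with both control groups, which take in both sexes, as controls. Leaving out each array gave 0 to 1 calls, with differences of 0.345 to 0.459; the call was lost without female control replicates 1, 3 or 4 and without exposed replicates 2, 3 or 4 (limma adjusted p from 0.0570 to 0.308). The F test count ran from 0 to 1, at 0 without exposed replicate 3. For dose in perinatally exposed females the count was 1 with array weights (Gjb6), otherwise 0. For window in males at 750 ppm leaving out each array gave 0 to 1 calls, with 1 without replicate 2 of the perinatal group (Aldh1l1, -0.18, adjusted p = 0.0489). No single-marker difference at an unadjusted p under 0.05 changed sign in the settings tried, the other counts did not move, and medians over the 9 markers that lay near 0 did change sign in some contrasts. Each marker had 1 probe set, so a second probe set could not be tried. No paired analysis was possible because the labels give no replicate numbers that groups have in common.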
